A study of Mus musculus with 8 samples.

Results

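Transcripts of 63 mouse genes for proteins of the centrosome and centriole were examined in germ cells of 15-day males that did or did not carry a germ cell deletion of *Mgat2*, the gene for the Golgi enzyme MGAT2 that starts the second branch of complex N-glycans. Members were all 41 genes whose symbol begins with *Cep* and a number, and 22 further genes chosen by name: the duplication factors *Plk4*, *Stil*, *Sass6* and *Cenpj*, the centrins *Cetn1* to *Cetn4*, and *Ccp110*, *Cntrob*, *Cntln*, *Poc1a*, *Poc1b*, *Poc5*, *Pcnt*, *Pcm1*, *Nin*, *Ninl*, *Odf2*, *Sfi1*, *Deup1* and *Rttn*. Of 55357 genes in the table, 20187 reached a TPM (transcripts scaled to a fixed total per library and to gene length) of 1 in at least 1 sample, and 61 members were among them. The 2 that did not were *Cep112it* and *Cep112os1*, non-coding transcripts at the *Cep112* locus with a median TPM of 0.375 and 0.08. *Cep83os*, another non-coding transcript, passed, so 60 of the tested members code for protein.

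The controls were 4 *Mgat2*[F/F] males, in which both alleles of *Mgat2* were floxed and intact. The other 4 males were *Mgat2*[F/F]:*Stra8*-iCre, here called *Mgat2* cKO. The *Stra8*-iCre transgene acts in spermatogonia from the first days after birth, so somatic cells of the testis keep the gene. Mice were on a C57BL/6 background and each library came from 1 mouse. The cells were germ cells enriched from dissociated tubules without sorting, and the RNA was a bulk mixture in which fewer cells of a type and less RNA per cell cannot be told apart.

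A centriole is a short barrel of microtubules that organises the centrosome and, once docked at the cell membrane, forms the base of a cilium or flagellum. PLK4, with STIL and SASS6, starts a new centriole on a cartwheel beside the old one, and proteins such as CENPJ and CEP120 extend its wall, while the cap protein CCP110 limits growth at the distal end. Mature centrioles carry distal appendages, which dock them to membrane, and subdistal appendages, which anchor microtubules. Spermatocytes duplicate their centrioles before the meiotic divisions, and in spermatids a centriole becomes the root of the sperm flagellum.

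Promoter windows are shown for 4 members because they include a pair of related centrins with unlike values (*Cetn4* and *Cetn2*), the coding gene outside the centrins with the lowest log2 fold change (*Cep128*) and the only deuterosome gene (*Deup1*). Each runs from 250 bases before to 50 bases after an annotated start in RefSeq, build GRCm38.p6, 5′ to 3′ on the strand of the gene. Capitals mark GTTGCC or GTTACC, or their reverse complements GGCAAC and GGTAAC, letters that form an arm of the X-box, the element recognised by RFX factors at genes of cilia.
Cetn4 (chr3:37312397-37312696, minus strand): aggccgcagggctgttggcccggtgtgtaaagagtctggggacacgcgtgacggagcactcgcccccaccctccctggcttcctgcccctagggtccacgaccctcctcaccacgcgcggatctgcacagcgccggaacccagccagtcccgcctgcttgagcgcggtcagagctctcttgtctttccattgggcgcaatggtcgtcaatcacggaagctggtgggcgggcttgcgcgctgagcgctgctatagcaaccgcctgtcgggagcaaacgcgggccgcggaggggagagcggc
Cetn2 (chrX:72918295-72918594, minus strand): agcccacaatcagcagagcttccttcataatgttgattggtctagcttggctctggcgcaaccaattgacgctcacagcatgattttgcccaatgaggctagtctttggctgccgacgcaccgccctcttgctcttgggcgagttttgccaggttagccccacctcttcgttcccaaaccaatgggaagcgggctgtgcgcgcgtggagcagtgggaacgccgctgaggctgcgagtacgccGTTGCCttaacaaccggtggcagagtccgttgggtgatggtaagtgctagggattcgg
Cep128 (chr12:91384360-91384659, minus strand): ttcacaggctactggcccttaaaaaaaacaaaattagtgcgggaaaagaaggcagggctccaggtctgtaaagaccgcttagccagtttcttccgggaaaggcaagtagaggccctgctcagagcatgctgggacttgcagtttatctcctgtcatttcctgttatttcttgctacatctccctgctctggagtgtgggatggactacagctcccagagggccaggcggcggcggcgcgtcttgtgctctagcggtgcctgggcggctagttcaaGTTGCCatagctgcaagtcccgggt
Deup1 (chr9:15627797-15628096, minus strand): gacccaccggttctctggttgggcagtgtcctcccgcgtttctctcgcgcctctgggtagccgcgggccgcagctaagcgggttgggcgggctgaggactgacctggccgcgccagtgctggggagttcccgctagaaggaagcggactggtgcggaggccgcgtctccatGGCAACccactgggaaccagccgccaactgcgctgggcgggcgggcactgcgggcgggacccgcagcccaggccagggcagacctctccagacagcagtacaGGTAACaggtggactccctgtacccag
The window of *Cetn4* held none of these letters, and other spellings of the arm were not searched. *Cetn2* had GTTGCC starting 8 bases before the start, *Cep128* had it 25 bases after the start, and *Deup1* had GGCAAC 79 bases before and GGTAAC 23 bases after the start. Another annotated start of *Deup1*, whose window is not shown (chr9:15628257-15628556), had GTTACC 29 bases before it. Over the 50 members with a window, 11 (22%) held GTTGCC on either strand in at least 1 window, against 14.9% of 12853 tested genes with a window. GTTACC was present in 7 members (14%) and in 7.55% of those genes. Of the 9 members with a window and a log2 fold change of -0.5 or lower, 3 held GTTGCC and 2 held GTTACC. These are matches of 6 letters and were not tested further.

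Levels were compared between genes in TPM, a value per length of transcript. *Cep85*, whose product binds STIL during duplication, was highest with a median over the 8 samples of 139.7 TPM (range 117.6 to 171.8). *Odf2*, which encodes a subdistal appendage protein that is also a part of the outer dense fibres of the sperm tail, followed with 131.8 TPM (104.1 to 270.9). *Cetn3* had 104.6 TPM (93.5 to 124.0), *Ninl* 92.9 (61.1 to 98.9), *Ccp110* 87.8 (65.9 to 156.4) and *Cep83*, a distal appendage protein, 78.1 (72.5 to 88.2). The ranges of neighbours in this order overlapped. The lowest coding members were *Deup1*, the scaffold of the deuterosome with which multiciliated cells amplify centrioles, at 1.34 TPM (0.98 to 2.1), *Cep295nl* at 1.74 (0.79 to 2.1) and *Nin* at 2.19 (1.56 to 6.55). *Cep63*, the gene related to *Deup1* that acts at the mother centriole, was at 50.7 TPM (40.7 to 100.8). Summed over the 61 tested members, the level was 2073 to 2744 TPM in the controls and 1852 to 2000.2 TPM in *Mgat2* cKO, so the sums of the genotypes did not overlap. The sum is weighted toward the genes with the highest TPM. The median over the members did overlap, taken on log2 scaled counts relative to the control mean of each gene. It was 0.19, -0.07, 0.05 and -0.14 in controls 1 to 4, and -0.11, -0.15, -0.15 and -0.10 in *Mgat2* cKO 1 to 4. The sum and the median are descriptions and were not tested.

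Libraries held 12584726 to 15907505 counts in the controls and 14069373 to 15572196 in *Mgat2* cKO. *Mgat2* itself had 69.8, 31.8, 64.3 and 59.8 CPM (counts scaled to a fixed total per library, with TMM factors) in the controls and 35.3, 20.1, 37.6 and 16.0 in *Mgat2* cKO. All 4 *Mgat2* cKO values lay below the control median and 2 below the lowest control, with a log2 fold change of -1.05 ± 0.36 (SE, n = 4 and 4, edgeR adjusted p = 0.47, DESeq2 adjusted p = 0.025). The first library of each genotype stood apart. Control 1 was the highest of the controls for 39 of 61 members (63.9%, against 35.8% of all tested genes), and *Mgat2* cKO 1 was the highest of its group for 30 members (49.2%, against 36.1%). Markers of pachytene spermatocytes moved with this. Their summed level was 2096, 676, 901 and 557 TPM in controls 1 to 4 and 692, 281, 291 and 237 TPM in *Mgat2* cKO 1 to 4. The sums overlapped, since *Mgat2* cKO 1 lay above controls 2 and 4. All 6 of 6 such markers had a negative log2 fold change, from -2.05 (*Piwil1*) to -0.14 (*Mybl1*), with a median of -1.45. None passed edgeR's adjusted test (*Piwil1*, the lowest, adjusted p = 0.44), and *Piwil1* passed in DESeq2 (adjusted p = 0.035). Markers of leptotene and zygotene cells (770 to 1295 against 826 to 1053 TPM) and of Sertoli cells (897 to 1140 against 919.6 to 1141 TPM) also overlapped between genotypes. So did those of undifferentiated (59.7 to 68.5 against 60.3 to 90.7 TPM) and differentiating spermatogonia (300 to 422 against 322 to 462 TPM). In each spermatogonial list 1 of 5 markers had a negative log2 fold change, and the medians were 0.24 and 0.20. Sertoli and peritubular myoid markers (360 to 485 and 319 to 613 TPM) show that somatic RNA was present, while Leydig (35.2 to 87.7 and 48.3 to 71.9), endothelial (4.08 to 7.68 and 3.57 to 8.07) and immune markers (3.11 to 6.63 and 4.84 to 8.82 TPM) were low. Of the spermatid markers, *Prm1* and *Tnp2* were listed at 0 in every sample, and the list summed to 11.7 to 44.5 and 7.02 to 18.8 TPM. The part of the pachytene share in the results given here was not tested.

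The comparison of the genotypes asked whether the loss of *Mgat2* changed transcripts before testis histology differs. In edgeR's quasi-likelihood test, 0 of the 61 members passed an adjusted p of 0.05, and over all 20187 genes 8 passed (0.0396%). At an unadjusted p under 0.05, there were 8 members (13.1%), *Cntln*, *Cep126*, *Cep83os*, *Ccp110*, *Odf2*, *Cep290*, *Cep89* and *Cep97*, against 8.9% of all genes. All 8 were lower in *Mgat2* cKO, where the share of all genes was 6.28%. DESeq2 gave 3 members at an adjusted p under 0.05, *Cep83os* (adjusted p = 0.032), *Ccp110* (0.039) and *Cep126* (0.041), against 1.5% of all genes. All 3 were lower, as were 1.41% of all genes. Limma-voom gave 0, as it did over all genes (0.0%). With replicates 2 to 4 alone, edgeR called 5 members, *Odf2*, *Cep126*, *Cntln*, *Cep85* and *Cetn1*, against 4.24% of all genes. All 5 were lower, against 3.78% of all genes. This setting kept 3 mice per genotype and left out the library of each genotype that stood apart in these same data. Over all genes its calls rose from 8 to 855, so its adjusted p values are descriptions and no separate support.

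Most members had lower values in *Mgat2* cKO. The log2 fold change (*Mgat2* cKO over control) was below 0 for 51 of 61 members (83.6%, against 48.6% of all genes), with a median of -0.14 against 0.01 for all genes. Most were small. It lay between -0.25 and 0.25 for 42 members, was -0.5 or lower for 10 (16.0% of all genes), and ranged from -1.93 (*Cetn1*) to 0.32 (*Nin*). Without replicate 1 of both genotypes the median was -0.09 and 48 members were lower. Without control 1 alone it was -0.09, with 46 lower. All 4 *Mgat2* cKO values lay below all 4 control values for 4 members, *Cep126*, *Cep290*, *Cep97* and *Cntrob*, and above them for 0. That is 6.56% of the members against 5.5% of all genes, and for lower values 3.03% of all genes. Leaving out a library can only keep or raise this count. It was 19 without *Mgat2* cKO 1 (15.2% of all genes) and 12 without control 4 (10.1%).

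**Figure D1:**
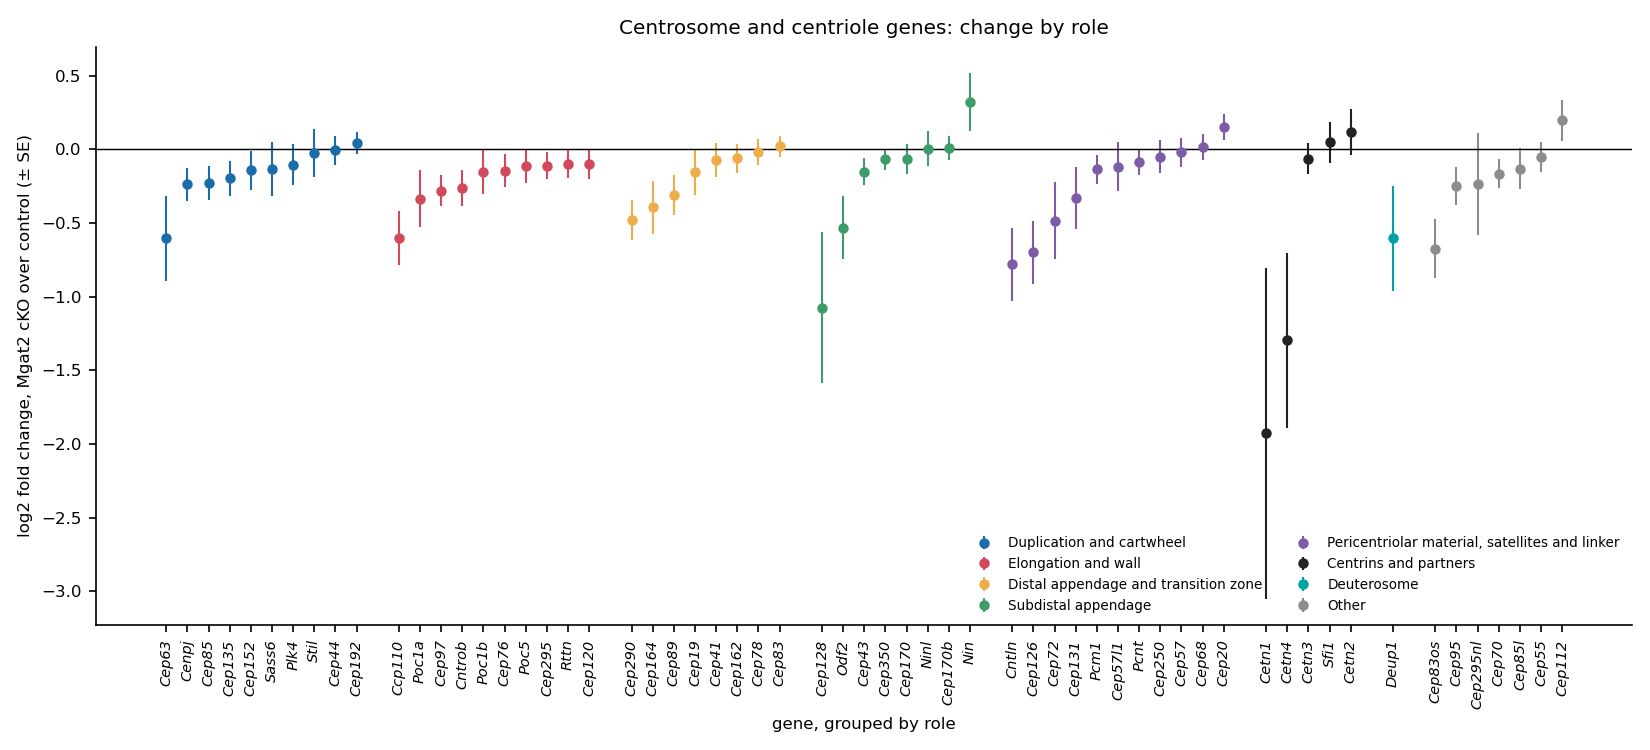
The log2 fold change of *Mgat2* cKO over control (vertical axis, points, with bars of ± 1 SE, n = 4 and 4) is plotted for 60 of the 61 tested members, grouped by role and ordered within the role. Most points lie slightly below 0, and *Cetn1* (-1.93), *Cetn4* (-1.30) and *Cep128* (-1.07) lie lowest, with the longest error bars.

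Centrins are small calcium-binding proteins in the lumen of the distal centriole. *Cetn2* and *Cetn3* are used in most cells, *Cetn1* arose as a retrocopy of *Cetn2* and is expressed in testis and retina, and *Cetn4* is known from ciliated tissue. *Cetn1* had 66.7, 14.3, 21.3 and 11.2 CPM in the controls and 23.2, 2.46, 3.28 and 0.78 CPM in *Mgat2* cKO. In each genotype replicate 1 was by far the highest, and *Mgat2* cKO 1 lay above 3 of the 4 controls, so the genotypes overlapped. The log2 fold change was -1.93 ± 1.12 (SE, edgeR adjusted p = 0.66). With replicates 2 to 4 alone the log2 fold change of *Cetn1* was -2.84, and edgeR's adjusted p was 0.044. Leaving out 1 library, it ran from -3.70 (without *Mgat2* cKO 1) to -1.06 (without control 1), and neither passed the test. *Cetn4* (GRCm39, chr3:37313705-37366887, minus strand) had 53.8, 17.5, 25.2 and 11.2 CPM in the controls and 20.4, 6.73, 8.58 and 8.08 CPM in *Mgat2* cKO. Again 3 of 4 *Mgat2* cKO values were below every control and *Mgat2* cKO 1 was not. Its log2 fold change was -1.30 ± 0.59 (adjusted p = 0.59), and with replicates 2 to 4 alone it was -1.21 (adjusted p = 0.0501). Without control 1 it was -0.71.

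The other centrins had values near 0. *Cetn2* had 22.3, 16.3, 18.5 and 17.8 CPM in the controls and 26.0, 19.9, 18.7 and 16.7 CPM in *Mgat2* cKO, a log2 fold change of 0.12 ± 0.16. *Cetn3* had 66.3, 54.1, 53.9 and 49.0 CPM against 59.2, 50.2, 51.7 and 52.6, a log2 fold change of -0.06 ± 0.10. The genotypes overlapped for each gene. *Sfi1*, which encodes a centrin-binding scaffold, had a log2 fold change of 0.05 ± 0.14. The annotated transcripts of *Cetn1* and *Cetn2* share no identical run longer than 29 bases and those of *Cetn2* and *Cetn4* none longer than 48 bases, against reads of 150 bases.

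**Figure D2:**
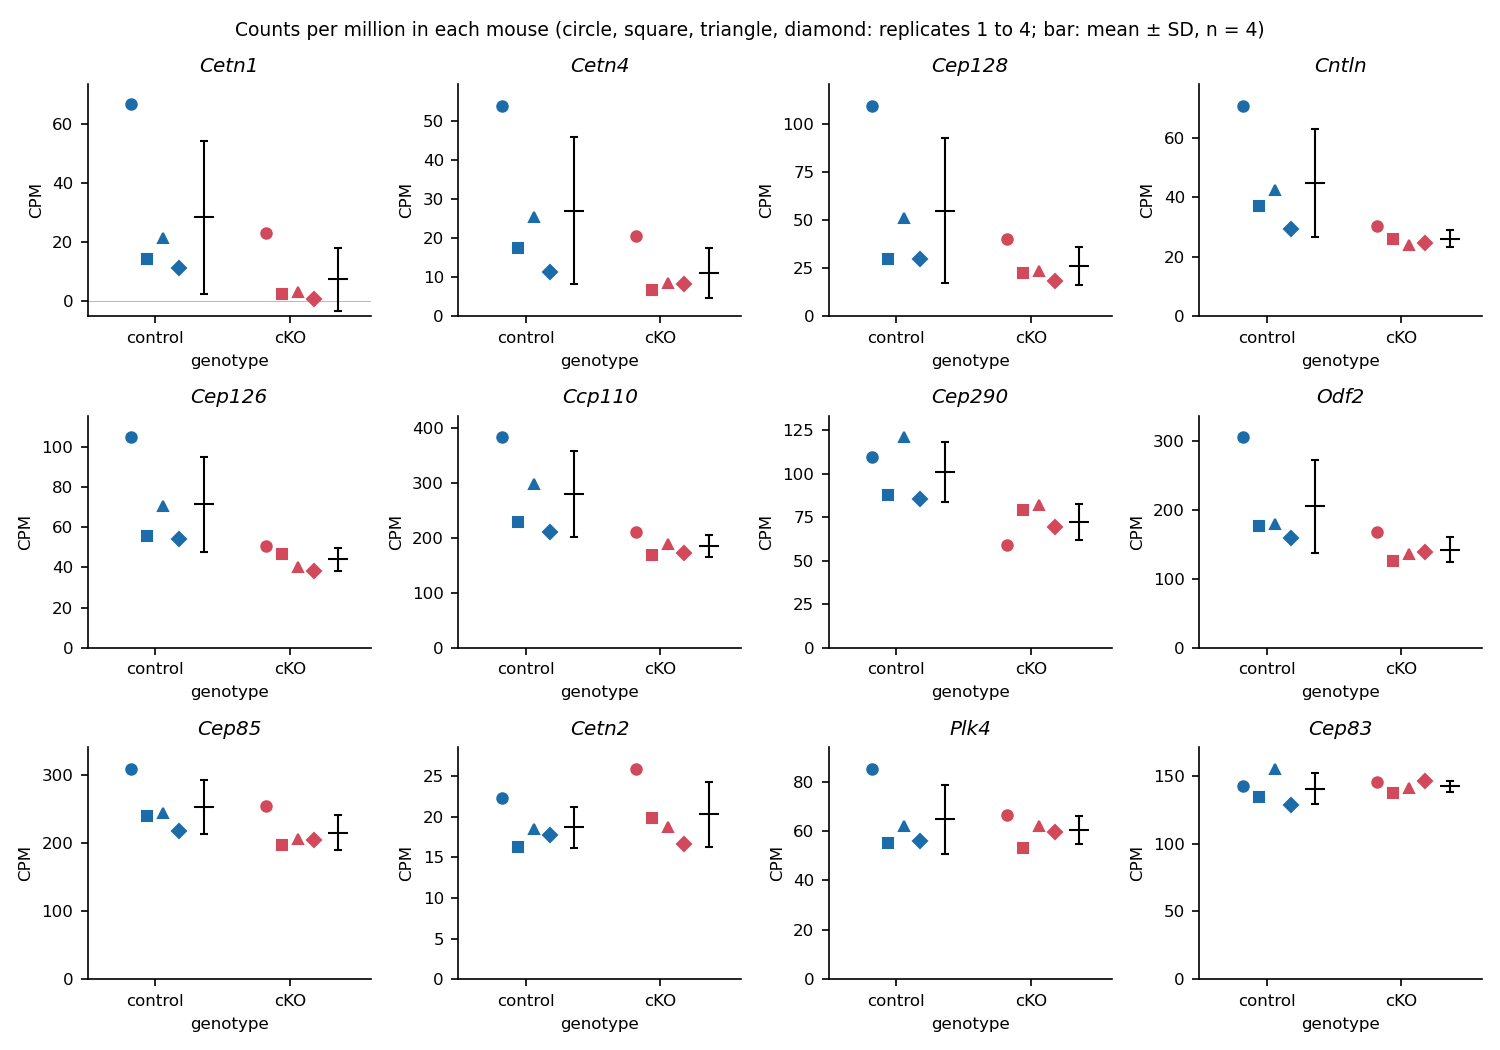
TMM-scaled CPM (vertical axis) of 12 members is plotted for each of the 4 control (blue) and 4 *Mgat2* cKO (red) mice, with the mean ± SD beside each group. Replicate 1 (circles) is the highest control for *Cetn1*, *Cetn4*, *Cep128*, *Cntln*, *Cep126*, *Ccp110*, *Odf2*, *Cep85*, *Cetn2* and *Plk4*, and all 4 red points lie below the blue ones for *Cep126* and *Cep290*.

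Among subdistal appendage genes, *Cep128* and *Odf2* stood at the low end. *Cep128* (chr12:90965149-91351248, minus strand), whose product sits at the subdistal appendage, had 109.4, 29.7, 50.8 and 29.6 CPM in the controls and 40.3, 22.3, 23.3 and 18.3 CPM in *Mgat2* cKO. Only *Mgat2* cKO 1 overlapped the controls, and control 1 was 3.69 times the median of the other controls. The log2 fold change was -1.07 ± 0.51 (adjusted p = 0.60) and -0.79 with replicates 2 to 4 alone (adjusted p = 0.28). Without control 1 it was -0.49. *Odf2* (chr2:29778780-29822068, plus strand) had 306, 176, 179.6 and 159.5 CPM against 168.5, 125.5, 136.2 and 138.5. Here too only *Mgat2* cKO 1 reached the controls, with a log2 fold change of -0.53 ± 0.21 (adjusted p = 0.54). Without replicate 1 of both genotypes it was -0.37 (edgeR adjusted p = 1.85e-04 in that subset). Without control 1 alone it was -0.27 and did not pass the test. The other 6 subdistal appendage genes lay between -0.15 (*Cep43*) and 0.32 (*Nin*). *Nin*, encoding ninein, which anchors microtubule minus ends, had 6.59, 6.87, 6.32 and 6.87 CPM in the controls and 5.97, 9.19, 7.68 and 10.4 in *Mgat2* cKO. Its 0.32 ± 0.20 was the highest log2 fold change of any member (adjusted p = 0.66), with 3 *Mgat2* cKO samples above and 1 below the controls, and it was 0.19 without *Mgat2* cKO 4. *Ninl*, its relative, had 0.01 ± 0.12.

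Pericentriolar material, satellites and the linker between centrioles held the next lowest values. *Cntln* (chr4:84802514-85050160, plus strand) encodes centlein, a linker protein, and had 70.7, 36.8, 42.3 and 29.2 CPM in the controls and 30.2, 25.8, 23.8 and 24.4 in *Mgat2* cKO. The values overlapped only through control 4 and *Mgat2* cKO 1, with a log2 fold change of -0.78 ± 0.25 (adjusted p = 0.44), and of -0.55 with replicates 2 to 4 alone (adjusted p = 0.0019). *Cep126* (chr9:8076458-8134475, minus strand), encoding a satellite protein linked to the cilium, had 105.1, 55.9, 70.6 and 54.4 CPM against 50.9, 46.8, 40.1 and 38.4, with no overlap. Its log2 fold change was -0.70 ± 0.21 in edgeR (adjusted p = 0.42) and -0.53 with replicates 2 to 4 alone (adjusted p = 0.0011). *Cep72*, another satellite gene, had -0.48 ± 0.26 and *Cep131* -0.33 ± 0.21. Without control 1 the log2 fold changes were -0.47 for *Cntln*, -0.45 for *Cep126*, -0.27 for *Cep72* and -0.09 for *Cep131*. The scaffolds were near 0: *Pcnt*, for pericentrin, had 159.9, 180.8, 153 and 173 CPM against 132, 164, 163 and 169.8 (-0.09 ± 0.09), and *Pcm1*, the main component of satellites, had 326, 261, 322 and 242 CPM against 264, 272, 257 and 255 (-0.14 ± 0.10). In this group 9 of 11 genes had a negative value, with a median of -0.12 and *Cep20* (0.15 ± 0.09) the highest.

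All 11 genes of elongation and the centriole wall had a negative log2 fold change, with a median of -0.15, and none passed edgeR's adjusted test. *Ccp110* (chr7:118311740-118336248, plus strand), whose product caps the distal end, was lowest. It had 384, 229.9, 298 and 210.7 CPM in the controls and 210.8, 168, 189 and 173 in *Mgat2* cKO. *Mgat2* cKO 1 only just passed control 4, and the log2 fold change was -0.60 ± 0.18 (edgeR adjusted p = 0.43). With replicates 2 to 4 alone *Ccp110* had -0.48 (edgeR adjusted p = 0.22). *Cep97*, the partner of CCP110 in the cap, had 45.2, 38.3, 42.1 and 35.2 CPM against 33.3, 30.2, 35.04 and 34.0, below every control but by a narrow gap (-0.28 ± 0.10). *Cntrob*, for centrobin of the daughter centriole, had 49.4, 52.5, 48.7 and 47.4 CPM against 30.9, 47.3, 44.2 and 42.8 (-0.26 ± 0.12). There the gap between genotypes was 47.4 to 47.3 CPM, and on the TPM scale the genotypes overlapped for both *Cntrob* and *Cep97*. Without *Mgat2* cKO 1 the log2 fold change of *Cntrob* was -0.14. In this group *Poc1a*, *Poc1b*, *Cep76*, *Poc5*, *Cep295*, *Rttn* and *Cep120* lay between -0.33 and -0.10, and *Poc1a*, the lowest of them, had -0.13 without control 1. Of these, *Poc1b* shares 50.3% of its exon bases with *Galnt4* and *Poc5* 45% with *Ankdd1b*, so their counts are uncertain.

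Of 10 duplication and cartwheel genes, 9 had a negative log2 fold change. Their median was -0.14, close to the -0.15 of the elongation and wall genes. With replicates 2 to 4 alone the medians were -0.14 and -0.11. *Plk4*, the kinase that starts duplication, had 85.3, 55.2, 62.2 and 56.0 CPM in the controls and 66.6, 52.9, 62.0 and 59.6 in *Mgat2* cKO (log2 fold change -0.10 ± 0.14). *Stil* had -0.03 ± 0.16 and *Sass6* -0.13 ± 0.19, and for each the genotypes overlapped. *Plk4* shares 15.3% of its exon bases with *Mfsd8*, and *Sass6* 15.8% with *Gm42893* and 4.76% with *Trmt13*. These genes are on the opposite strand, and as the libraries do not keep strand, reads there cannot be told apart. *Cenpj*, which extends the wall of the new centriole, had 43.0, 42.4, 40.8 and 32.2 CPM against 31.9, 34.2, 37.0 and 31.1 (-0.24 ± 0.11), and *Cep152*, which recruits PLK4, -0.14 ± 0.13. *Cep63*, the partner of CEP152, was the lowest of the group. It had 153, 65.9, 93.2 and 61.8 CPM in the controls and 68.4, 61.5, 59.8 and 56.5 in *Mgat2* cKO, so that control 1 was 2.32 times the median of the other controls. Its log2 fold change of -0.60 ± 0.29 (adjusted p = 0.60) became -0.32 with replicates 2 to 4 alone (adjusted p = 0.48) and -0.26 without control 1. *Cep85* had 309.8, 240.1, 244 and 217 CPM against 255, 198, 206 and 204, a log2 fold change of -0.23 ± 0.12 (adjusted p = 0.59). With replicates 2 to 4 alone *Cep85* had -0.21 (edgeR adjusted p = 0.043 in that subset). Without control 1 alone it had -0.12 and did not pass the test.

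Of 8 distal appendage and transition zone genes, 7 had a negative value. *Cep290* (chr10:100323416-100410702, plus strand), encoding a gatekeeper of the ciliary transition zone, was lower in every *Mgat2* cKO sample: 109.6, 87.5, 121 and 85.7 CPM in the controls against 59.2, 79.1, 82.2 and 69.6. Its log2 fold change was -0.48 ± 0.13 (edgeR adjusted p = 0.34, DESeq2 adjusted p = 0.051), and -0.35 with replicates 2 to 4 alone (edgeR adjusted p = 0.40). Unlike most low members, its lowest value was in *Mgat2* cKO 1, and control 3 rather than control 1 was highest. In the libraries, which do not keep strand, 18.5% of its exon bases are shared with *Rlig1* on the opposite strand, and reads there cannot be told apart. *Cep164*, which builds on the distal appendage, had 95.3 CPM in control 1 and 54.5, 56.4 and 54.8 in the other controls, against 55.6, 46.6, 50.4 and 46.3 in *Mgat2* cKO (-0.39 ± 0.18). *Cep89* had -0.31 ± 0.14. Without control 1 these log2 fold changes were -0.15 for *Cep164* and -0.16 for *Cep89*. *Cep83*, on which distal appendages assemble, had 143, 135, 155 and 129 CPM against 146, 137, 141 and 146 (0.02 ± 0.07), with both genotypes in the same range. The non-coding *Cep83os*, which lies across the start of *Cep83* on the opposite strand (chr10:94506887-94525578, minus strand), had 147.6, 91.6, 125.9 and 80.9 CPM against 85.7, 62.1, 69.9 and 61.7, a log2 fold change of -0.68 ± 0.20 (edgeR adjusted p = 0.42). Exons of the pair share 75 bases, while 29.5% of the exon bases of *Cep83os* are also in *Gm49167* on the opposite strand. With replicates 2 to 4 alone *Cep83os* had -0.63 (edgeR adjusted p = 0.23).

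*Deup1* was low, with 47, 19, 34 and 22 counts in the controls and 19, 18, 23 and 20 in *Mgat2* cKO. In CPM this was 3.19, 1.23, 2.15 and 1.72 against 1.26, 1.17, 1.61 and 1.42, where 3 counts correspond to 0.189 to 0.238 CPM. Its log2 fold change was -0.60 ± 0.35 (adjusted p = 0.64), and it was -0.29 with replicates 2 to 4 alone and -0.32 without control 1.

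**Figure D3:**
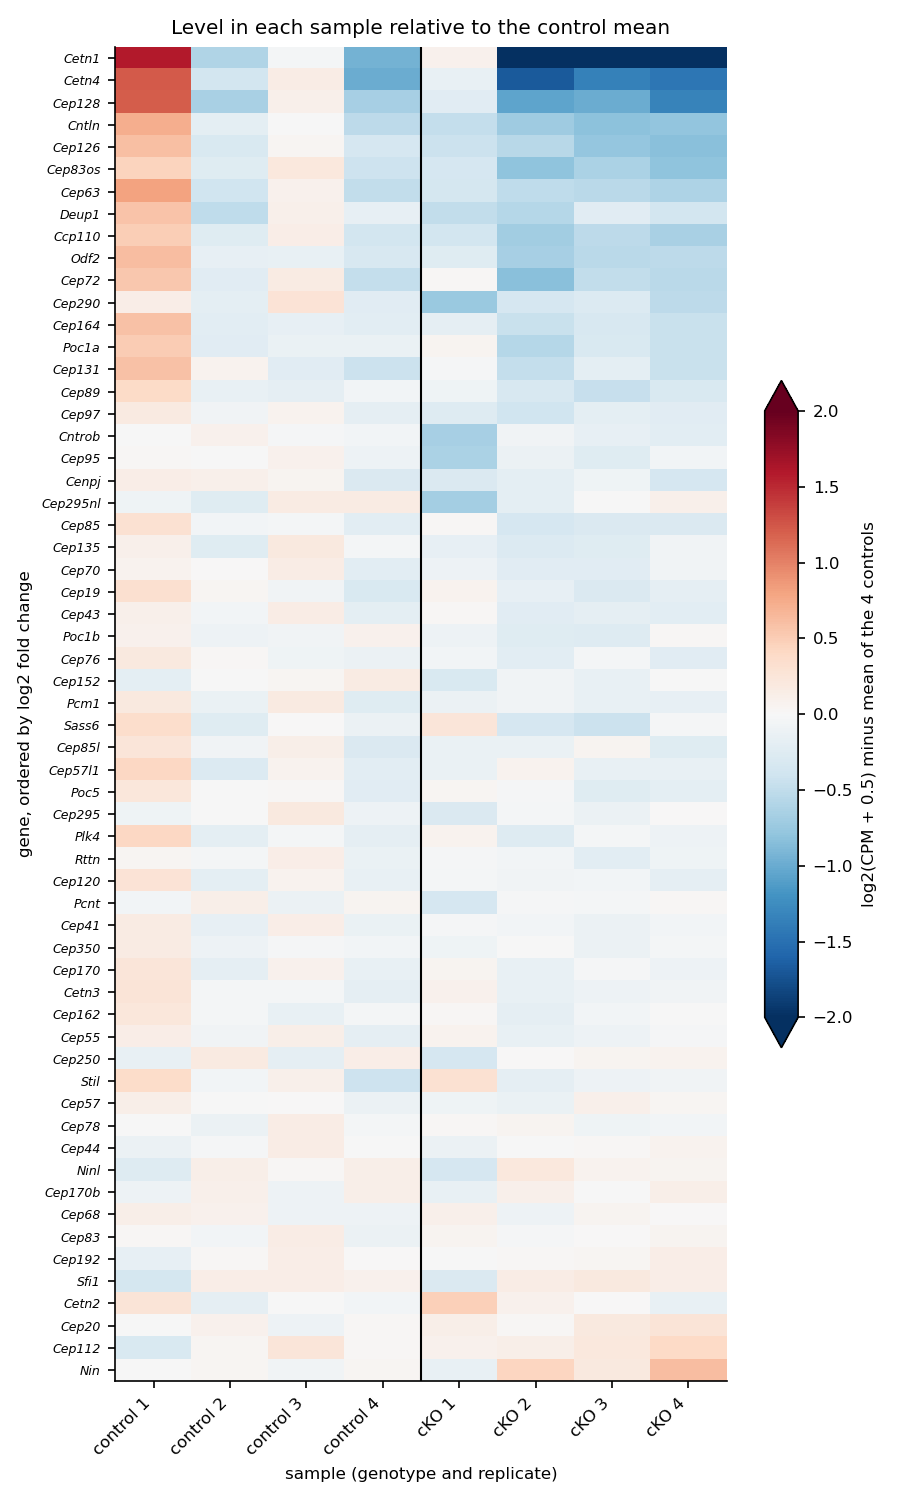
The colour gives log2(CPM + 0.5) minus the mean of the 4 controls for 60 of the 61 tested members (rows, ordered by log2 fold change) in each of the 8 samples (columns). Colours run from -2 to 2, and values beyond are drawn at the end of the scale. Control 1 is reddest for most genes at the top, and *Mgat2* cKO 2 to 4 are bluest there, while the lower part of the map is nearly white.

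Members with a larger spread among the controls had lower log2 fold changes. Across the 61 members, the log2 fold change and the standard deviation of log2(CPM + 0.5) among the 4 controls had a Pearson r of -0.91 and a Spearman rho of -0.66. The deviations of control 1 and of *Mgat2* cKO 1 from their own group means had an r of 0.82. These correlations run over genes measured in the same 8 libraries, so they are descriptions with no test, and the log2 fold change and the standard deviation share the control values.

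**Figure D4:**
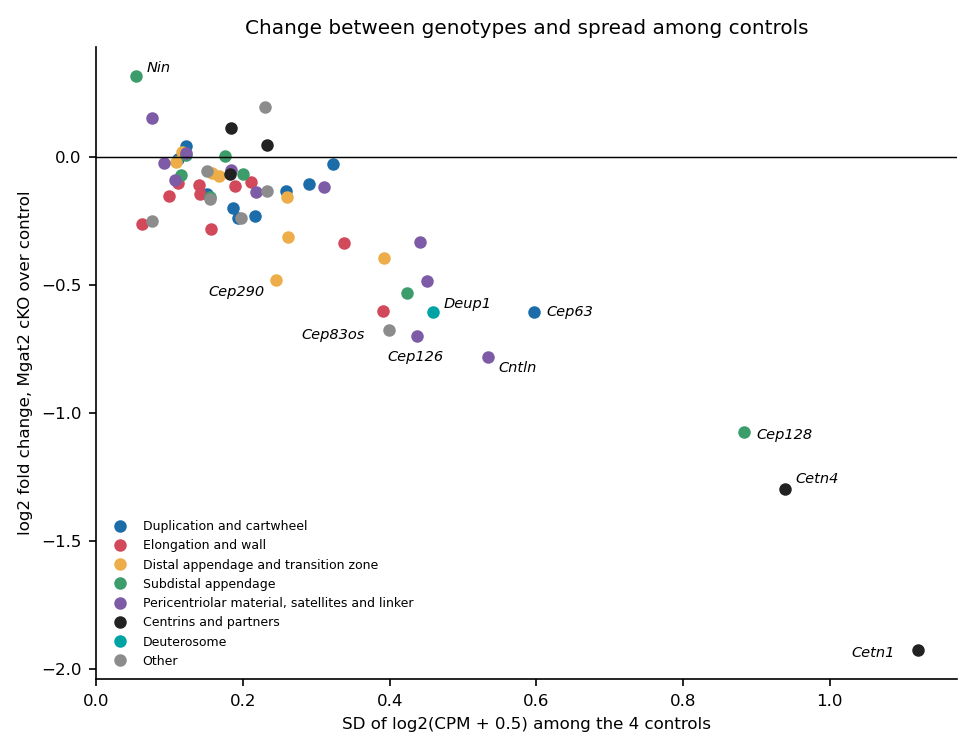
Each point is a member (60 of the 61 tested are drawn), with the standard deviation of log2(CPM + 0.5) among the 4 controls on the horizontal axis, the log2 fold change of *Mgat2* cKO over control on the vertical axis, and colour for role. *Cetn1*, *Cetn4* and *Cep128* lie at the lower right, with the largest spread and the lowest values, whereas *Cep290* lies low at a modest spread (r = -0.91 over 61 genes).

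To compare related genes within the same mouse, the log2 ratio of CPM (each with 0.5 added) was taken for 9 pairs and tested by a two-sided exact permutation test over samples, whose smallest possible p with 4 and 4 samples is 0.029. After adjustment over the 9 pairs a p could pass only if most pairs had that smallest value, so the adjusted test says little here. The genotypes overlapped for each pair. *Cetn4*/*Cetn2* had 1.25, 0.10, 0.44 and -0.65 in the controls and -0.34, -1.49, -1.08 and -0.9997 in *Mgat2* cKO. The difference was -1.26 (exact permutation p = 0.057, adjusted p = 0.34). *Cetn1*/*Cetn2* had 1.56, -0.19, 0.20 and -0.65 against -0.16, -2.78, -2.34 and -3.75. That difference was -2.49 (exact permutation p = 0.086, adjusted p = 0.34). *Ninl*/*Nin* differed by -0.27 (exact permutation p = 0.11, adjusted p = 0.34), with a mean of 4.64 ± 0.16 in the controls and 4.37 ± 0.19 in *Mgat2* cKO (SD, n = 4). *Deup1*/*Cep63* differed by 0.09 (exact permutation p = 0.66), *Poc1b*/*Poc1a* by 0.17 (p = 0.46), *Cep85l*/*Cep85* by 0.11 (p = 0.40) and *Cetn3*/*Cetn2* by -0.16 (p = 0.23).

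**Figure D5:**
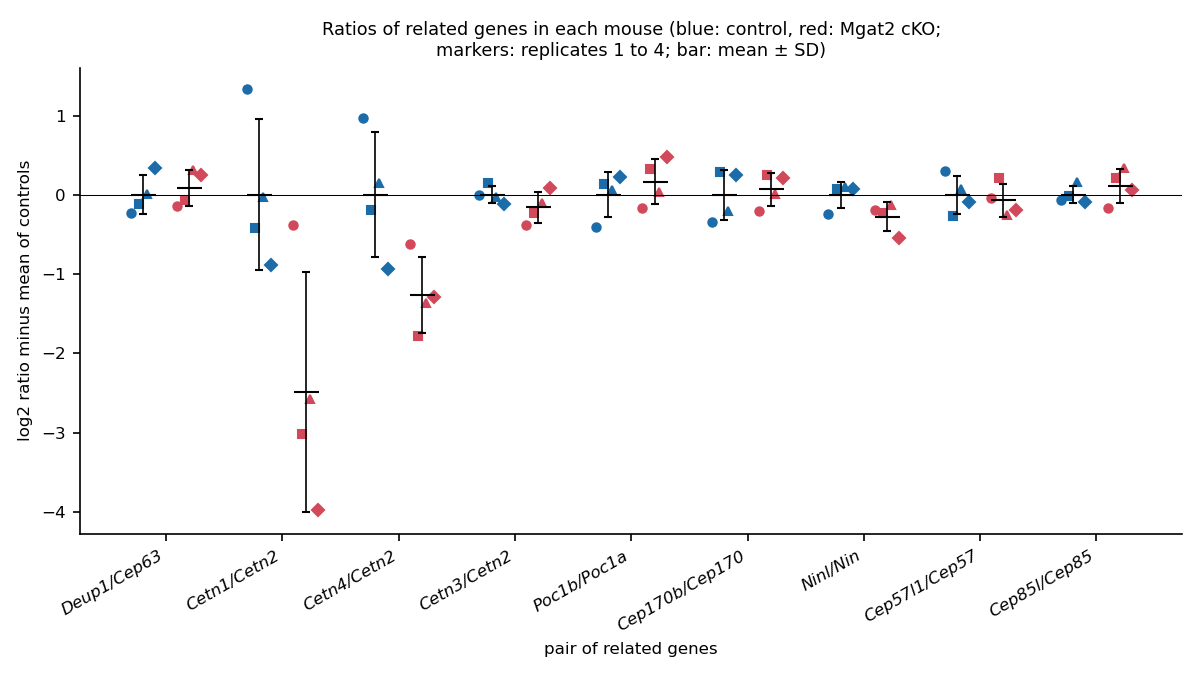
The log2 ratio of each of 9 pairs of related genes is plotted per mouse relative to the control mean of that pair (controls blue, *Mgat2* cKO red, markers for replicates 1 to 4, bars for the mean ± SD). The *Mgat2* cKO means of *Cetn1*/*Cetn2* and *Cetn4*/*Cetn2* lie at -2.49 and -1.26, with points that overlap the controls, and the other pairs lie near 0.

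A second list held 50 centrosome genes outside the naming rule, such as the gamma-tubulin ring genes, the augmin genes *Haus1* to *Haus8*, centrosomal kinases and appendage genes, of which 48 were tested. Their median log2 fold change was -0.13, with 36 lower in *Mgat2* cKO, beside -0.14 and 51 of 61 for the members. EdgeR called 0 of them (0.0396% of all genes). DESeq2 called 1 of the 48, against 1.5% of all genes. The gene called was *Dzip1*, which encodes a basal body protein needed to build cilia. *Dzip1* had 48.4, 18.3, 21.7 and 19.8 CPM in the controls and 18.3, 11.6, 9.21 and 10.6 in *Mgat2* cKO, a log2 fold change of -1.12 ± 0.37 (edgeR adjusted p = 0.45, DESeq2 adjusted p = 0.036), and -0.68 without control 1. The genotypes did not overlap for 5 of the 48 genes (10.4%, against 5.5% of all genes), 4 of them lower. At an unadjusted p under 0.05 in edgeR, 9 were lower and 1 higher. That is 20.8%, against 13.1% of the members and 8.9% of all genes. With replicates 2 to 4 alone edgeR called 7 of the 48, beside 5 of 61 members and 4.24% of all genes. With a replicate block it called 7, beside 13 members and 7.25% of all genes.

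Genes of the flagellum and cilium, for which centrioles are the base, were set beside the members in the same fit. Of these, 32 of 33 tested *Cfap* genes, for proteins of cilia and flagella, had a negative log2 fold change, with a median of -1.26 and 25 genes at -0.5 or lower. For *Ift* and *Bbs* genes, whose products carry cargo in the cilium, 20 of 22 were negative, with a median of -0.23 and 6 at -0.5 or lower. The corresponding figures for the members were 51 of 61, -0.14 and 10. EdgeR called 0 genes in each of the 3 families. DESeq2 called 9 of 33 *Cfap* genes, 2 of 22 *Ift* and *Bbs* genes and 3 of 61 members, against 1.5% of all genes. EdgeR with replicates 2 to 4 alone called 14, 4 and 5, against 4.24% of all genes. The families were not tested against each other.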

How the data were processed

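PolyA-enriched, unstranded paired libraries of germ cell RNA from 8 mice were sequenced with reads of 150 bases. Per the labels and the study's methods, the authors aligned reads to mm39 with STAR 2.7.9a and estimated expected counts and TPM per gene with RSEM 1.3.3. The deposited expected counts (6.37% of values not whole, since RSEM divides reads among genes) were rounded here, and the deposited TPM values were used as levels and for the expression filter. The authors' own test used DESeq2 1.38.3.

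The 20187 genes that reached a TPM of 1 in any sample were tested with edgeR 4.0.16 (TMM, robust quasi-likelihood F-test, no covariate, Benjamini-Hochberg over all genes tested, threshold 0.05; R 4.3.3). The SE of a log2 fold change is its size divided by the square root of F. CPM are TMM-scaled. DESeq2 1.42.0, limma 3.58.1 and other settings were alternatives. Scripts were tested on simulated data. With these totals 3 counts correspond to 0.189 to 0.238 CPM; this floor covers counting error only. Groups and replicate numbers come from sample titles. Gene positions are GENCODE (GRCm39; 20075 of the tested IDs matched), promoter windows RefSeq (GRCm38.p6; 50 members matched).

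Genes were named by rule: members called by edgeR, by DESeq2 or with a replicate block, those with genotypes apart in every sample, the 6 lowest and 3 highest log2 fold changes, the 6 highest TPM, and 15 core genes. Others named only by symbol, range or role complete a group. Members, roles and lists were chosen with earlier results of these data known. The single result of 1 member is not reported here, and the plots leave it out, while counts and medians include it.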

Additional observations from a re-analysis of the deposited data

Results flagged for a closer look

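Of 62 groups of 4 samples examined (the CPM of 31 named members in each genotype), 5 had a sample whose distance from its nearest neighbour exceeded Dixon's critical value for groups of 4, as a share of the range. A rate of about 5% by chance would hold for independent groups of genes named in advance. These groups share the same libraries, and some genes were named for their values in these data, so that rate is no yardstick here. In each of the 5, the sample was the highest and was replicate 1. *Odf2* had 306.1 CPM in control 1, and *Cep164* had 95.3 CPM in control 1. In *Mgat2* cKO 1, *Cetn1* had 23.2 CPM, *Cetn4* 20.4 CPM and *Cep85* 254.8 CPM. In the same libraries the summed pachytene markers were the highest of their genotype, at 2096 TPM in control 1 and 692 TPM in *Mgat2* cKO 1. The part of this in the 5 values was not tested.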

How the results depend on the processing

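Calls depended on the test and the samples more than on scaling. The number of members called, 0 of 61 in edgeR, was 3 with DESeq2 and 5 with replicates 2 to 4 alone, and 0 under the other settings without a block, leaving out any 1 sample included. Over all genes, the 8 calls became 302 (DESeq2), 855 (replicates 2 to 4), 17 (library totals), 18 (upper-quartile factors), 35 (no filter), 0 (edgeR's own filter, voom, and limma-trend on TPM + 0.1 or + 1), and 0 to 32 leaving out 1 sample, the most without control 4. The number of members whose genotypes did not overlap, 4, was 8 in TPM (5.0% of all genes), 20 with replicates 2 to 4 (18.7%) and 4 to 19 leaving out 1 sample, with 12 without control 4 (10.1%) and 19 without *Mgat2* cKO 1 (15.2%). *Cep126* and *Cep290* were among them under each scaling and in TPM. Genes apart in all 8 samples stay apart when samples are left out. Those settings could therefore only keep or raise the count and could not remove a gene. The median log2 fold change of the members stayed between -0.19 and -0.09.

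Replicate numbers are shared by the genotypes, but no label states a pairing of mice. Deviations of same-numbered samples correlated at 0.53 for replicate 1 and at 0.039 to 0.20 for the others. The mean was 0.23, against -0.07 for different numbers, and 1 pair was under 0.1. Of 8 samples, 4 correlated best with their own number. These values cannot decide whether the mice were paired, and the main fit used no block because no pairing is stated. With a replicate block, edgeR called 13 members (*Cetn1*, *Cetn4*, *Cep128*, *Cntln*, *Cep126*, *Cep83os*, *Ccp110*, *Odf2*, *Cep290*, *Cep72*, *Cep164*, *Cep89* and *Cep85*) and 1464 genes (7.25%), and DESeq2 called 12 members (those without *Cep89*) and 1223 genes (6.06%), all members lower.

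Directions reversed for values near 0. Leaving out 1 sample, the log2 fold change ran from -0.013 (without control 4) to 0.073 for *Cep83*, from -0.024 (without *Mgat2* cKO 1) to 0.21 for *Cetn2*, from -0.12 to 0.031 (without control 1) for *Cetn3*, from -0.072 (without control 1) to 0.11 for *Ninl*, from -0.17 to 0.062 (without control 1) for *Plk4*, from -0.27 to 0.0072 (without control 1) for *Sass6* and from -0.15 to 0.11 (without control 1) for *Stil*. *Cetn2* was -0.0195 and -0.0187 with limma-trend on TPM + 0.1 and + 1, *Plk4* 0.0071 with replicates 2 to 4, *Stil* 0.0051 with upper-quartile factors, and *Ninl* -0.003 with DESeq2 factors, -0.0031 with DESeq2, -0.0083 with its block and -0.002 with library totals. Of the ratios, *Deup1*/*Cep63* was -0.13 and *Cep57l1*/*Cep57* 0.11 in TPM + 0.1. Leaving out 1 sample, *Cep57l1*/*Cep57* ran from -0.16 to 0.029 and *Cep170b*/*Cep170* from -0.047 to 0.16, reversed without control 1. The causes were not tested.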

Other observations

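Because RSEM divides counts by an isoform-weighted length to obtain TPM, the ratio of expected count to TPM gives the mean transcript length implied for a gene in a sample, up to a constant of the library. This ratio was compared after the data had been seen, on the log2 scale and centred on each library's median, with limma over 11612 genes that had at least 50 counts and a TPM of 1 in every sample. At an adjusted p of 0.05, limma called 0 genes (0% of those compared) and 0 of the 58 members among them. At an unadjusted p under 0.05 it called 5 members, against 3.98% of all genes.

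The genotypes did not overlap for 2 members, against 2.04% of all genes. For *Cep43*, which encodes a partner of subdistal appendages also known as FOP, the implied length was 0.05, -0.02, 0.01 and -0.05 in the controls and 0.15, 0.20, 0.16 and 0.16 in *Mgat2* cKO. The difference was 0.17 ± 0.03 (SE, limma adjusted p = 0.94). For *Cep63* it was -0.0017, -0.02, 0.05 and 0.05 in the controls and -0.22, -0.23, -0.39 and -0.06 in *Mgat2* cKO. That difference was -0.24 ± 0.06 (limma adjusted p = 0.99). *Nin*, with 88 to 147 counts, had implied lengths that ranged over 1.78 on the log2 scale within the 8 samples. In *Mgat2* cKO alone they ran from -0.07 to 1.72. The TPM of *Nin* depends on this length, and its CPM does not.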
